A study of Mus musculus with 9 samples.

Results

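Ccna1 encodes cyclin A1, and its level was described over 9 Affymetrix arrays of mouse oviduct, the duct in which eggs are fertilised and early embryos travel to the uterus. It was found by its symbol in the platform's annotation, and 1 of 28214 probe sets carried that symbol alone (probe set 10498192), so it is 1 of 19937 genes named in this way. The arrays form 3 groups of 3: sexually mature females in diestrus, mature females in estrus, and sexually immature females of day 21, which the labels title as the control. All animals were CD1 females that received no hormones, and each array carried RNA of oviduct pooled from 5 animals. The labels give no age for the mature females and name no shared litter, day or batch. The spread between arrays is therefore a spread between pools, and age and cycling cannot be told apart in a comparison with immature females. The gene was chosen by these array values, because they were higher in immature oviduct, so its differences from immature oviduct are given below as values with their standard errors and no test. The comparison of diestrus with estrus played no part in that choice and was tested.

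Cyclins are the regulatory subunits that switch on cyclin-dependent kinases (CDKs). Mammals have a pair of A-type cyclins. Cyclin A2, encoded by Ccna2, drives S phase and entry into mitosis in dividing cells of most tissues. Cyclin A1 is best known from the male germ line of the mouse, where spermatocytes need it to enter the meiotic divisions; it binds CDK1 and CDK2. In mouse airway cells that are building many cilia, cyclin A1 has also been described as a partner of CDK2 while centrioles are amplified without DNA replication. The oviduct epithelium consists of ciliated and secretory cells, and its ciliated cells form in the weeks after birth.

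The 250 bases before the start site of Ccna1 are printed with those of 3 genes that the results below turn on: Ccnb2, a mitotic cyclin, and Ccno and Cdc20b, genes of centriole amplification in ciliated cells. They come from RefSeq on GRCm38.p6 and read 5′ to 3′ on the strand of the gene. Capitals mark 4 motifs on either strand: the CCAAT box (CCAAT), the GC box (GGGCGG), E2F sites (GCGGGAA, with the variant GCGCGAA also accepted and likewise the variant GCGCCAA) and the CHR element of cell cycle promoters (TTTGAA, with TTCGAA also accepted).
Ccna1, chr3:55055056-55055305, minus strand: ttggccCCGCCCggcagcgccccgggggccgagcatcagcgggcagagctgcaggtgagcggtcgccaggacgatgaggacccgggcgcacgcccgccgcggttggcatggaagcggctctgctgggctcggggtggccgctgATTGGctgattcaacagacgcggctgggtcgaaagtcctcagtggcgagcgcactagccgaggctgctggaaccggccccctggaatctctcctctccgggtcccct
Ccnb2, chr9:70421555-70421804, minus strand: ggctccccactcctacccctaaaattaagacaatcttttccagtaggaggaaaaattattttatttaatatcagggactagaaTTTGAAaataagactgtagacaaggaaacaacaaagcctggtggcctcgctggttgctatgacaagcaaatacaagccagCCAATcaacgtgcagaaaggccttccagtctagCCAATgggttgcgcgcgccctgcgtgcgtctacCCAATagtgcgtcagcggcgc
Ccno, chr13:112987552-112987801, plus strand: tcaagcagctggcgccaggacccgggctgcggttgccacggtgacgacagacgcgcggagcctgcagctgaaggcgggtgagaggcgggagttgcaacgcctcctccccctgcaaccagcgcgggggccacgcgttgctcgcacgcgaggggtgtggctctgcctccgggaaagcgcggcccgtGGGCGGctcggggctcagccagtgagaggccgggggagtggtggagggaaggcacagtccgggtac
Cdc20b, chr13:113035129-113035378, plus strand: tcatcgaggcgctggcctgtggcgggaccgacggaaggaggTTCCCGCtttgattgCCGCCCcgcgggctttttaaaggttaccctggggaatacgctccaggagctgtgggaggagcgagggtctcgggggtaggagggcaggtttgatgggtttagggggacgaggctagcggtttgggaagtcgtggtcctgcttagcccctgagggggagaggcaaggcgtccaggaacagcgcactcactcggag

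The Ccna1 window held 71.2% G and C, more than 92.2% of the 32851 windows of this length in the same table, whose median was 52.4%. It held 1 CCAAT box, in reverse orientation and beginning 107 bases before the start site, a motif found in 33.8% of all windows. Its 1 GC box began 244 bases before the start site, and 32.7% of all windows hold that motif. It held neither an E2F site (6.69% of all windows) nor a CHR element (17.1%). Motifs of MYB factors (AACNG) occurred at 3 places, 151, 95 and 37 bases before the start site, but 74.2% of all windows hold at least 1. The Ccnb2 window held 3 CCAAT boxes, 87, 54 and 21 bases before the start site, and 1 CHR element at 167. The Ccno window held 1 GC box, and the Cdc20b window 1 GC box and 1 E2F site. The motif GTTGCC, to which RFX factors of ciliated cells bind, occurred in the Ccno window, where it overlaps a MYB motif, in 10.4% of all windows, and not in the Ccna1 window. These matches are descriptions of letters and not of binding, and the RefSeq record of Ccna1 extends a further 2579 bases upstream of this start site.

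The deposited values are log2 intensities after robust multi-array averaging (RMA). Ccna1 stood at 9.133, 9.037 and 9.167 in diestrus, at 9.230, 9.164 and 9.097 in estrus, and at 10.195, 10.045 and 10.345 in immature oviduct. All 6 mature arrays lay below all 3 immature arrays, and the diestrus and estrus arrays overlapped. Group means were 9.11 ± 0.07 in diestrus, 9.16 ± 0.07 in estrus and 10.20 ± 0.15 in immature oviduct (SD, n = 3 each). Ccna1 differed by -1.08 ± 0.08 (SE) on the log2 scale in diestrus and by -1.03 ± 0.08 in estrus, both from immature oviduct. On a linear scale these are 0.472 and 0.489 times the immature level. The highest diestrus array and the lowest immature array were 0.88 apart, and the highest estrus array and the lowest immature array 0.82 (log2). The gene was chosen for being higher in immature oviduct, so these gaps are descriptions. The pooled SD within groups was 0.10. In bulk tissue, fewer cells that express the gene and less RNA per cell cannot be told apart.

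**Figure D1:**
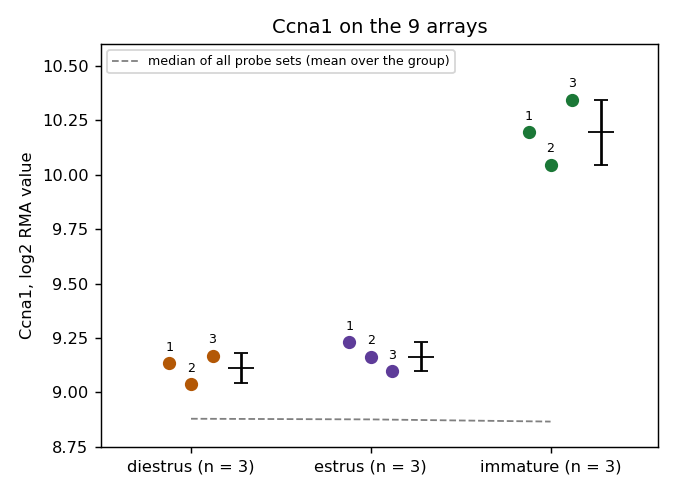
Log2 RMA value of Ccna1 (y axis) on each array of diestrus, estrus and immature oviduct (x axis). Points are single pools numbered as in the labels, black bars are the mean ± SD of 3 arrays, and the dashed line is the median of all probe sets; the mature arrays lie between 9.037 and 9.230 and the immature arrays between 10.045 and 10.345.

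The mature stages were compared with each other next. The difference of diestrus from estrus was -0.05 ± 0.08 (SE; limma adjusted p = 0.964, 95% interval -0.23 to 0.128), and the arrays of both stages overlapped. Across all probe sets, 45 differed between diestrus and estrus at an adjusted p under 0.05, which is 0.159% (19 higher in diestrus, 0.0673%, and 26 lower, 0.0922%). The order of the levels was thus diestrus and estrus together, not separated beyond their spread, and immature oviduct above both.

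Ccna1 lay above the array's median probe set on all 9 arrays. The percentage of probe sets with a lower value was 56.4, 53.9 and 56.6 in diestrus, 58.3, 57.1 and 55.4 in estrus, and 79.0, 76.5 and 81.1 in immature oviduct. It passed the upper quartile of the array, which stood between 9.92 and 10.02, on the immature arrays and on no mature array. Probes differ in affinity, so these positions do not rank Ccna1 RNA against that of other genes. Ordered from the lowest difference upward over all probe sets, it was at place 7 for diestrus and place 10 for estrus, both relative to immature oviduct.

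Some arrays stood apart in markers of neighbouring tissue. The mean of 14 ovarian somatic markers, genes of granulosa, theca and luteal cells, was 9.26 on diestrus 2, 8.71 on diestrus 3 and 9.14 on immature 2, against 8.17 to 8.34 on the other 6. Of these 14, 3 lay below the array median on all 9 arrays. Inha, the inhibin subunit of granulosa cells, reached 12.42 on immature 2, where Ccna1 was the lowest of the immature arrays. The mean of 16 oocyte markers was also highest on immature 2, at 8.56, against 7.98 to 8.28 on the other 8. The mean of 10 smooth muscle markers was 11.54 on diestrus 3, against 10.78 to 10.99 on the others. Diestrus 3 was also highest in the mean of 8 endothelial markers (9.57, against 9.03 to 9.31) and of 9 leukocyte markers (8.98, against 8.32 to 8.72). The mean of 8 fat cell markers was 9.05 on immature 1 and 8.85 on immature 2, against 8.35 to 8.56 on the other 7, and immature 3, at 8.51, had the highest Ccna1 value of all. A fit without immature 2, diestrus 2 and diestrus 3, chosen after seeing the data, keeps 1 diestrus array and 2 immature arrays, and the lone diestrus array is assumed to vary like the other groups. In it Ccna1 differed by -1.14 ± 0.11 in diestrus and by -1.11 ± 0.08 in estrus from immature oviduct. The part of ovarian cells, oocytes, muscle, endothelium, leukocytes or fat in the Ccna1 values was not tested. Markers of the oviduct itself were present throughout. All 11 measured genes of the secretory list lay above the array median on every array, with means of 11.59 to 11.71. Not all of them are particular to secretory cells: the list holds Krt8, Krt18, Epcam, Cdh1, Pgr and Esr1, and its member Ovgp1 was not measured. Of 34 structural genes of motile cilia 3 lay below the array median on some array. Their mean was highest on immature 3, at 11.18, against 10.77 to 11.0 on the others. The mean of 24 genes of the program that builds many cilia, described below, was also highest on immature 3, at 10.27, against 9.72 to 10.16. The part of ciliated cells in the Ccna1 values was not tested.

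The cyclin family was set beside Ccna1, with 26 of 28 listed members measured, Ccna1 among them. In diestrus against immature oviduct 3 fell, Ccna2, Ccnb2 and Ccno, and none rose; over all probe sets 1.00% were called in either direction, 0.294% as higher and 0.705% as lower. The median of the 25 was -0.14 (log2), against 0.0087 for all probe sets, and 21 of the 25 had a lower mean, against 46.5% of all probe sets. In estrus against immature oviduct limma called none of the 25, with 0.0851% of all probe sets called, 0.0319% as higher and 0.0532% as lower. At an unadjusted p under 0.05, 6 of them were lower and none was higher, against 1839 of 28214 probe sets in either direction. The median was -0.063 against 0.011 for all probe sets. Between diestrus and estrus limma called none of the 25. At an unadjusted p under 0.05, 2 of them were lower in diestrus, against 2631 of all probe sets in either direction. In diestrus against immature oviduct 3776 of all probe sets passed that level. These totals are the background for such counts in the lists below. The 3 calls in diestrus became 1 when any single immature array, diestrus 1, diestrus 2 or estrus 3 was left out, 5 without diestrus 3, and 0 without the 3 arrays with high ovarian or muscle markers, a fit with 1 diestrus array that called 3 probe sets in all.

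**Figure D2:**
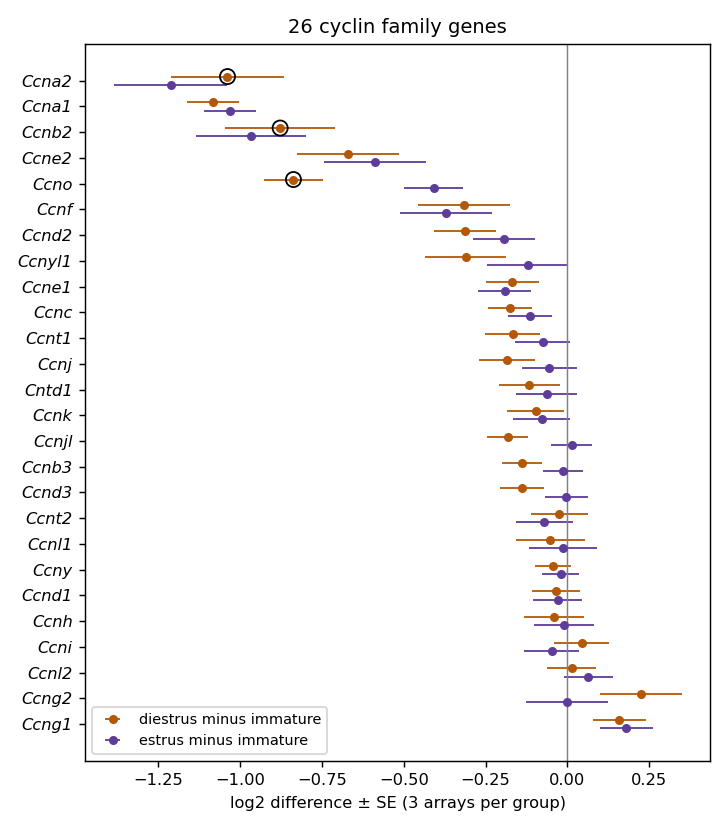
Log2 difference ± SE (x axis) of 26 cyclin family genes (rows) in diestrus and in estrus, each minus immature oviduct, from 3 arrays per group. Circles mark the calls of the family other than Ccna1, which was chosen for its difference and is shown without a test; Ccna2, Ccna1, Ccnb2, Ccne2 and Ccno lie farthest below 0 and most others lie near it.

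Ccna2, the general A-type cyclin, stood at 8.86, 9.11 and 9.59 in diestrus, at 9.30, 8.82 and 8.92 in estrus, and at 10.21, 10.27 and 10.20 in immature oviduct. Its mature arrays all lay below the immature arrays, as those of Ccna1 did, but they spread more widely, with diestrus 3 the highest. The fall in diestrus was -1.04 ± 0.17 (limma adjusted p = 0.0318), and the call was lost on leaving out any of 6 arrays (diestrus 1, diestrus 2, estrus 3 or any immature array), with an adjusted p of up to 0.121. In estrus the difference from immature oviduct was -1.21 ± 0.17 (adjusted p = 0.0524).

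Ccnb2, cyclin B2, which works with CDK1 in mitosis, stood at 9.34, 9.32 and 9.90 in diestrus, at 9.76, 9.27 and 9.26 in estrus, and at 10.395, 10.399 and 10.401 in immature oviduct. Diestrus 3 and estrus 1 were its highest mature arrays, and no mature array reached the immature ones. Its fall in diestrus was -0.88 ± 0.17 (adjusted p = 0.0496), a call that was lost without any of 7 arrays (diestrus 1, diestrus 2, estrus 2, estrus 3 or any immature array). In estrus the difference was -0.97 ± 0.17 (adjusted p = 0.105).

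Ccno, cyclin O, which is needed in differentiating ciliated cells to make the many centrioles that become basal bodies, stood at 9.01, 9.04 and 8.90 in diestrus, at 9.56, 9.40 and 9.27 in estrus, and at 9.90, 9.67 and 9.89 in immature oviduct. The 3 groups did not overlap, with estrus between diestrus and immature oviduct. Its fall in diestrus was -0.84 ± 0.09 (adjusted p = 0.00604) and was called whichever array was left out. The differences of estrus from immature oviduct (-0.41 ± 0.09, adjusted p = 0.211) and of diestrus from estrus (-0.43 ± 0.09, adjusted p = 0.117) did not pass.

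The E-type cyclins, which act with CDK2 at the start of S phase, did not pass in these comparisons. Ccne2 differed by -0.67 ± 0.16 in diestrus (adjusted p = 0.0898) and by -0.59 ± 0.16 in estrus (adjusted p = 0.351), with all mature arrays below all immature ones. Ccne1 differed by -0.17 and -0.19. The D-type cyclins, which carry growth signals to CDK4 and CDK6, differed by -0.03 and -0.03 (Ccnd1), -0.31 and -0.19 (Ccnd2) and -0.14 and -0.0023 (Ccnd3), in diestrus and in estrus each time. Ccnf, a subunit of a ubiquitin ligase active in G2, differed by -0.32 in diestrus and -0.37 in estrus. Ccnb3, which is known from meiosis, lay between 6.60 and 6.83 on every array and differed by -0.14 and -0.013.

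None of the remaining members was called. The cyclins of transcription and RNA processing (Ccnc, Ccnh, Ccnk, Ccnl1, Ccnl2, Ccnt1 and Ccnt2) differed by between -0.17 and 0.06 in the mature stages. Ccnj differed by -0.18 and -0.05, Ccnjl by -0.18 and 0.01, Ccnyl1 by -0.31 and -0.12, Ccny by -0.04 and -0.02, Cntd1 by -0.12 and -0.06, and Ccni by 0.04 and -0.05. Ccng1, a p53 target, differed by 0.16 in diestrus and 0.18 in estrus, and Ccng2 by 0.22 and -0.0017. Within 0.5 (log2) of immature oviduct lay 21 of the 25 in diestrus and 22 in estrus. All mature arrays lay below all immature arrays for 5 of the 25, against 3.18% of all probe sets.

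CDKs and the proteins that activate or inhibit them were measured for 23 of 24 listed genes. Cks2, a small CDK-binding subunit needed in mitosis and meiosis, was the 1 gene that fell in diestrus, and none rose; limma called none in estrus, where 8 were lower and none higher at an unadjusted p under 0.05. Cks2 stood at 9.81, 9.84 and 10.20 in diestrus, at 10.25, 10.16 and 9.94 in estrus, and at 10.82, 10.87 and 10.69 in immature oviduct. Its fall in diestrus was -0.84 ± 0.12 (limma adjusted p = 0.0152), lost without diestrus 1, diestrus 2 or any immature array. The list's median difference was -0.069 in diestrus and -0.13 in estrus, with 18 of 23 means lower in each.

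The kinase partners of cyclin A1 did not pass. Cdk1, the mitotic kinase, stood at 9.57, 9.71 and 10.41 in diestrus, at 10.25, 9.63 and 9.85 in estrus, and at 10.78, 10.79 and 10.75 in immature oviduct. It differed by -0.88 ± 0.21 in diestrus (adjusted p = 0.0971) and -0.86 ± 0.21 in estrus (adjusted p = 0.284), again with diestrus 3 the highest mature array. Cdk2, singled out as a partner of cyclin A1 after its values were known, differed by -0.24 ± 0.07 (adjusted p = 0.163) and -0.25 ± 0.07 (adjusted p = 0.423). Cdc20, an activator of the ligase that destroys cyclins, differed by -0.37 in each stage, the phosphatase gene Cdkn3 by -0.35 and -0.36, and Cks1b by -0.48 and -0.07.

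Of 23 proteins known to bind, regulate or be targets of A-type cyclin kinases, all were measured, and Rbl1 and Mybl1 fell in diestrus. Rbl1 encodes p107, a relative of the retinoblastoma protein that binds A-type cyclins. It stood at 9.41, 9.55 and 9.81 in diestrus, at 10.10, 10.16 and 10.33 in estrus, and at 10.23, 10.21 and 10.19 in immature oviduct. The diestrus arrays lay below all others, and the estrus and immature arrays overlapped. Its difference in diestrus was -0.62 ± 0.10 (adjusted p = 0.0270), against -0.012 ± 0.10 in estrus, and diestrus differed from estrus by -0.61 (adjusted p = 0.0580). Ccna1, by contrast, differed by -1.03 between estrus and immature oviduct.

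Mybl1 encodes A-Myb, a transcription factor that mouse spermatocytes need to pass through meiosis. It stood at 8.38, 8.29 and 8.41 in diestrus, at 8.43, 8.81 and 8.62 in estrus, and at 8.96, 9.01 and 8.93 in immature oviduct. Its 6 mature values lay below the array median. All mature arrays lay below all immature ones; it fell by 0.61 ± 0.09 in diestrus (adjusted p = 0.0202), and the estrus difference was -0.35 ± 0.09 (adjusted p = 0.325). The calls of Rbl1 and Mybl1 were lost without diestrus 1, diestrus 2 or any immature array. Foxm1, which drives mitotic genes, differed by -0.45 and -0.56, Cdc6 by -0.22 and -0.30, Lin9 by -0.17 and -0.17, and Rbl2 by 0.21 and 0.14, none of them called. In estrus limma called none of the 23, with 6 lower and none higher at an unadjusted p under 0.05, and the medians were -0.066 in diestrus and -0.088 in estrus.

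Ccna1 was then set beside genes of cell division and genes of centriole amplification. Among 35 measured mitosis genes, Ect2 and Racgap1, which act in cytokinesis, and Smc4, a condensin subunit, fell in diestrus and none rose. Their values were -1.01 ± 0.14 for Ect2 (adjusted p = 0.0164), -0.66 ± 0.13 for Racgap1 (0.0496) and -0.38 ± 0.07 for Smc4 (0.0496), with the 6 mature values of Racgap1 below the array median. In estrus limma called none, with 29 lower and none higher at an unadjusted p under 0.05. The list's median was -0.49 in diestrus and -0.49 in estrus, and 34 and 35 of the 35 had a lower mean. All mature arrays lay below all immature arrays for 24 of the 35, against 3.18% of all probe sets. Uncalled members with large differences were Bub1, a spindle checkpoint kinase (-0.97 and -1.05), Mki67 (-0.88 and -1.12), Prc1 (-0.89 and -0.97) and Top2a (-0.89 and -0.90). Each of these 3 calls was lost without diestrus 1, diestrus 2 or any immature array, that of Racgap1 also without estrus 1 or estrus 3, and that of Smc4 also without any estrus array.

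Of 28 measured S phase genes, Dtl, which marks licensing proteins for destruction, fell by 0.76 ± 0.14 (adjusted p = 0.0426) and Rfc4, a subunit of the clamp loader, by 0.54 ± 0.09 (adjusted p = 0.0342), both in diestrus, and none rose. Both calls were lost without diestrus 1, diestrus 2, estrus 1, estrus 3 or any immature array, and that of Dtl also without estrus 2. The 6 mature values of Dtl lay below the array median. In estrus limma called none, with 18 lower and none higher at an unadjusted p under 0.05. The medians were -0.27 in diestrus and -0.34 in estrus, and 26 and 27 of 28 means were lower. The uncalled members with the largest differences, averaged over the mature stages, were Pole (-0.39 and -0.59), Chaf1b (-0.41 and -0.53), Rrm1 (-0.42 and -0.49) and Mcm6 (-0.35 and -0.55).

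The program that builds many cilia was measured for 24 of 24 genes. In diestrus 8 fell and none rose: Stil, Deup1, Plk4, Cdc20b, Ccno, Mcidas, Sass6 and Tubg1. Stil, Plk4, Sass6 and Tubg1 are not particular to ciliated cells and also serve the centrioles of dividing cells. The part of dividing cells in these falls was not tested. Ccno is also counted among the cyclins above. Stil, needed to start new centrioles, stood at 8.06, 8.10 and 8.21 in diestrus, at 8.62, 8.56 and 8.39 in estrus, and at 9.22, 9.13 and 9.49 in immature oviduct, so the groups did not overlap. Its 6 mature values lay below the array median. It fell by 1.16 ± 0.10 in diestrus (limma adjusted p = 0.00246) and by 0.75 ± 0.10 in estrus (adjusted p = 0.0369), and the estrus call was lost on leaving out any array except diestrus 3.

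Deup1, which organises the deuterosomes on which these centrioles grow, stood at 9.66, 9.57 and 9.60 in diestrus, at 10.47, 10.22 and 9.90 in estrus, and at 10.64, 10.55 and 10.85 in immature oviduct. It fell by 1.07 ± 0.13 in diestrus (adjusted p = 0.0103), a call lost without diestrus 2 (adjusted p = 0.0518), and its estrus difference was -0.48 ± 0.13 (adjusted p = 0.382). Plk4, the kinase that starts centriole duplication, stood at 8.84, 8.79 and 9.21 in diestrus, at 9.64, 9.49 and 9.31 in estrus, and at 9.98, 10.05 and 9.92 in immature oviduct. It fell by 1.04 ± 0.12 in diestrus (adjusted p = 0.00657), called whichever array was left out. In both genes the 3 groups did not overlap and estrus lay between the others.

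Cdc20b, whose product is needed for centriole production in ciliated cells, stood at 8.94, 8.95 and 8.94 in diestrus, at 9.46, 9.28 and 9.24 in estrus, and at 9.76, 9.81 and 10.30 in immature oviduct. It fell by 1.01 ± 0.13 in diestrus (adjusted p = 0.0127), lost without diestrus 2 (adjusted p = 0.0526), and differed by -0.63 ± 0.13 in estrus (adjusted p = 0.166). Cdc20b and Ccno are listed close together on chromosome 13. Mcidas, a coactivator that starts the program, fell by 0.56 ± 0.08 (adjusted p = 0.0149), Sass6, a cartwheel protein, by 0.52 ± 0.08 (0.0264) and Tubg1, gamma-tubulin, by 0.41 ± 0.07 (0.0362) in diestrus. The Mcidas and Sass6 calls were lost without any single immature array, that of Sass6 also without diestrus 1 or diestrus 2, and that of Tubg1 without diestrus 1, diestrus 2, estrus 1, estrus 3, immature 2 or immature 3. The uncalled members with the largest differences, averaged over the mature stages, were Cep78 (-0.49 and -0.27), Gmnc, the regulator upstream of Mcidas (-0.66 and -0.05), Foxn4 (-0.25 and -0.17) and Trp73 (-0.28 and -0.14).

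As a group, all 24 genes of this program had lower means in diestrus and 23 in estrus, with medians of -0.27 and -0.16. All mature arrays lay below all immature arrays for 12 of the 24, against 3.18% of all probe sets. The 8 calls in diestrus became 4 without diestrus 2 and 5 without immature 2 or without immature 3. The fit without the 3 arrays with high ovarian or muscle markers has 1 diestrus array and called 3 probe sets in all for diestrus, so the loss of the 8 calls there says nothing about these genes. Its medians were -0.32 in diestrus and -0.17 in estrus.

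Between the mature stages Ccna1 differed by -0.05. Of the 24 genes of the program, 22 had a lower mean in diestrus than in estrus, with a median of -0.17 against -0.006 for all probe sets. All diestrus arrays lay below all estrus arrays for 12 of the 24, against 6.85% of all probe sets, and those of Ccna1 overlapped. None of the 24 passed the limma threshold, and 12 were lower and none higher at an unadjusted p under 0.05. Of the mitosis genes, 5 of 35 had a lower mean in diestrus than in estrus, and the median was 0.08. On diestrus 3 the mean of the mitosis list was 8.78, against 8.28 and 8.38 on the other diestrus arrays, 8.24 to 8.58 in estrus and 8.93 to 9.04 in immature oviduct. On diestrus 1 alone, the diestrus array without high ovarian or muscle markers, 27 of the 35 mitosis genes and 21 of the 24 genes of the program lay below the estrus mean, which sets 1 pool against 3. The part of smooth muscle or other tissue on diestrus 3 in the mitosis values was not tested. Ccna1 on diestrus 3 stood 0.05 above its group mean.

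**Figure D3:**
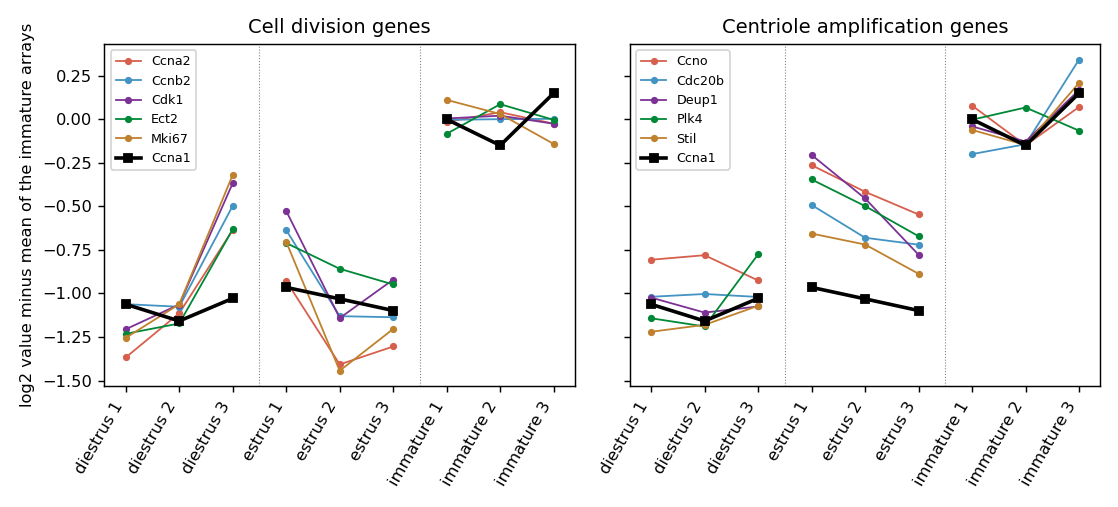
Log2 value of Ccna1 (black) and of 5 cell division genes (left panel) or 5 centriole amplification genes (right panel) on each of the 9 arrays (x axis), each minus the gene's own mean of the immature arrays (y axis). Lines join the arrays of 1 group for legibility only. The 5 division genes are raised on diestrus 3, and so is Plk4 in the right panel. The 5 centriole genes lie higher in estrus than in diestrus, and so does Ect2 in the left panel when diestrus 3 is set aside. The other division genes then overlap between the stages, each with the higher mean in estrus. Ccna1 lies at about the same height in both stages.

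Of 34 measured structural genes of the motile cilium itself, limma called none in any comparison, and the medians were -0.097 in diestrus, -0.11 in estrus and 0.0045 for diestrus minus estrus. Of these genes, 28 had a lower mean in diestrus and 31 in estrus than in immature oviduct, against 46.5% and 45.2% of all probe sets. Between the mature stages 16 had a lower mean in diestrus, against 53.1% of all probe sets. At an unadjusted p under 0.05, 4 were lower in diestrus and 3 in estrus relative to immature oviduct, none was higher, and none differed between the mature stages. Of all 28214 probe sets, 3776 in diestrus and 1839 in estrus passed that level relative to immature oviduct, in either direction. Averaged over the mature stages, the largest differences were those of the tektin gene Tekt2 (-0.35 and -0.45), Spag16 (-0.30 and -0.31), Cfap52 (-0.31 and -0.24) and Rsph1 (-0.23 and -0.23).

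Because Ccna1 is a germ cell gene in the testis, lists of germ cells were examined. Of 22 meiosis and germ cell genes, 21 lay below the array median on all 9 arrays and Sohlh1 on some, and limma called none in any comparison. Their medians were 0.0057 in diestrus and 0.022 in estrus relative to immature oviduct, and the per-array means lay between 6.85 and 6.98. At an unadjusted p under 0.05 none was lower, and 2 were higher in estrus, against 1839 of 28214 probe sets in either direction. Averaged over the mature stages, Hormad1 (0.06 and 0.21), Sohlh1 (0.13 and 0.15), Dmc1 (0.06 and 0.09) and Syce1 (0.02 and 0.14) differed most, and in diestrus alone Tex11 had the highest difference of the list, 0.14.

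Oocyte markers were measured for 16 of 17 genes, of which 9 lay below the array median on all arrays. Limma called none in any comparison, with medians of -0.082 in diestrus and -0.14 in estrus, and 2 and 5 lower at an unadjusted p under 0.05. Zp2, a protein of the egg coat, stood at 7.43, 7.90 and 7.73 in diestrus, at 7.61, 7.67 and 7.59 in estrus, and at 8.29, 8.92 and 7.83 in immature oviduct. Its difference was -0.66 ± 0.23 in diestrus (adjusted p = 0.237) and -0.72 ± 0.23 in estrus (adjusted p = 0.534), with Nlrp5 (-0.49 and -0.59), Zp3 (-0.52 and -0.54) and Padi6 (-0.35 and -0.61) next. The part of oocytes in the Ccna1 values was not tested.

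**Figure D4:**
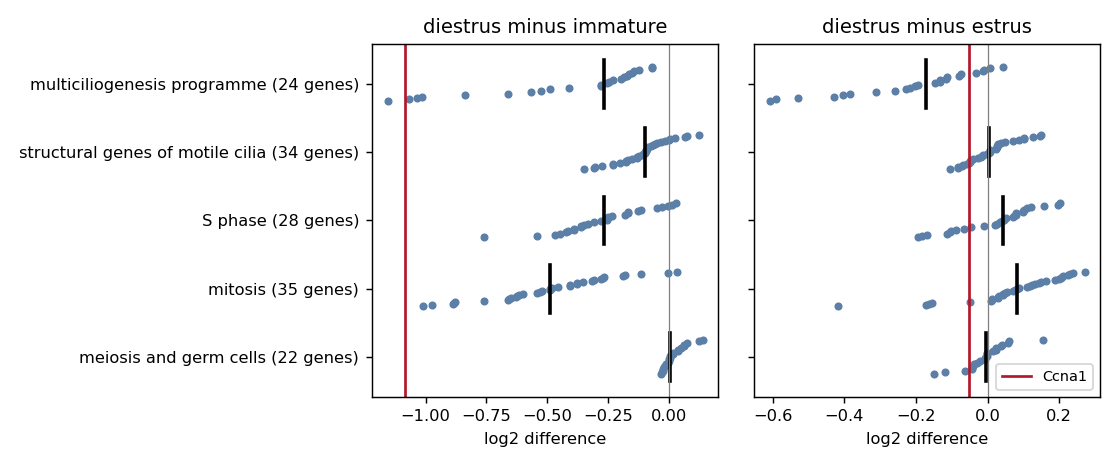
Log2 difference (x axis) of each measured gene of 5 lists (rows), for diestrus minus immature oviduct (left panel) and diestrus minus estrus (right panel). Points are genes, spread vertically in order of their difference, black bars are list medians and the red line is Ccna1; Ccna1 lies at -1.08 in the left panel, beyond all listed genes except Stil, and at -0.05 in the right panel.

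The other marker lists were run for the cell types the tissue holds. In diestrus, 1 of 14 measured ovarian somatic genes rose, Star, the cholesterol carrier of steroid-making cells (0.74 ± 0.14, adjusted p = 0.0463), a call lost without any array except diestrus 1; the list's median was 0.0022 in diestrus and -0.11 in estrus. Of 9 measured leukocyte genes Jchain, the joining chain of secreted antibodies, rose in diestrus (2.16 ± 0.20, adjusted p = 0.00301) and in estrus (2.05 ± 0.20, adjusted p = 0.0182), with list medians of 0.28 and 0.05. The estrus call was lost without immature 2 or immature 3. Limma called none of 11 genes of the secretory list (medians -0.0097 and -0.04) or of 10 smooth muscle genes (0.15 and -0.033) in either stage. It also called none of 8 fat cell genes (-0.21 and -0.17) or 8 endothelial genes (0.10 and -0.13). At an unadjusted p under 0.05 the fat cell list had 4 lower members in each stage and none higher, among them Retn (-0.97 and -0.89) and Fabp4 (-0.54 and -0.63). At that level the secretory list had 2 higher in diestrus and 1 lower in estrus, the muscle list 1 higher in diestrus and 1 lower in estrus, and the endothelial list none in diestrus and 1 lower in estrus. The leukocyte list, Jchain included, had 4 higher in diestrus and 2 higher in estrus, and the ovarian list, Star included, 2 higher and 1 lower in diestrus and 1 lower in estrus. The part of any of these cell types in the Ccna1 values was not tested.

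By the root mean square difference of profiles over the 9 arrays, each centred on its own mean, the 12 genes most like Ccna1 among 17480 were Stil, Spc25, Adam5, Ect2, Knl1, Sgo2a, Cdc20b, Ccnb2, Ckap2l, Cks2, Nt5dc2 and H2bc14. Their differences from the Ccna1 profile ran from 0.16 for Stil to 0.213 for H2bc14 (log2), against 0.359 at the 1st percentile and 0.51 at the median of all genes ranked. They were picked for this likeness, so their differences are descriptions. Spc25, a kinetochore protein, stood at 7.80, 7.93 and 8.05 in diestrus, at 8.19, 7.83 and 7.82 in estrus, and at 8.96, 8.73 and 8.70 in immature oviduct. It lay below the array median on 8 of the 9 arrays. Adam5, a gene known from mouse sperm, stood at 8.78, 8.73 and 8.73 in diestrus, at 8.88, 8.83 and 8.62 in estrus, and at 9.52, 9.28 and 9.57 in immature oviduct. Its 6 mature values lay below the array median. In Adam5, Stil and H2bc14 the order of the 3 immature arrays was that of Ccna1, with immature 3 the highest and immature 2 the lowest. The others of the 12 had a different order.

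Knl1 and Sgo2a, which act at kinetochores and centromeres, differed by -0.86 and -0.85 in diestrus and by -0.88 and -0.82 in estrus. The 6 mature values of each lay below the array median. Ckap2l, a spindle protein, differed by -0.80 and -0.66, Nt5dc2 by -1.02 and -0.94, and the histone gene H2bc14 by -0.67 and -0.62. Leaving out 1 array kept between 6 (without diestrus 3) and 12 (without estrus 3) of the 12, with 8 kept without immature 1 and 8 without immature 3. Ranked by correlation in place of distance, 2 of the 12 remained, Adam5 and H2bc14. Of the 12, 11 had a window in the promoter table. Of these, 9 held a CCAAT box (33.8% of all windows), 8 a GC box (32.7%), 3 an E2F site (6.69%) and 4 a CHR element (17.1%). A MYB motif was held by 10 (74.2%) and the RFX motif by 1 (10.4%). Genes with more than 1 window were counted when any of them held the motif, whereas the shares are per window.

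The genes on either side of Ccna1 on chromosome 3 differed little between the groups. On the side of lower coordinates lie Smad9, Rfxap and Sertm1, and on the other Spg20, Ccdc169 and Sohlh2. Their differences lay between -0.07 and 0.10 in both mature stages relative to immature oviduct, and none was called (adjusted p from 0.645 upward). The nearest, Spg20, stood at 9.07, 9.15 and 9.14 in diestrus, at 9.12, 9.26 and 9.15 in estrus, and at 9.26, 9.16 and 9.15 in immature oviduct, so its groups overlapped. On the same chromosome, RefSeq lists Ccna1 at chr3:55045469-55057634 and Ccna2 at chr3:36564865-36573038 (GRCm38.p6).

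**Figure D5:**
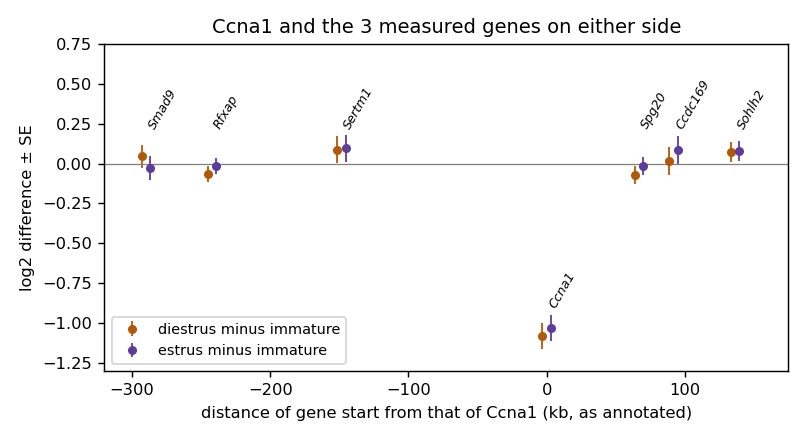
Log2 difference ± SE (y axis) in diestrus and in estrus, each minus immature oviduct, of Ccna1 and of the 3 measured genes on either side, by distance in kilobases from Ccna1 (x axis). The 6 neighbours lie between -0.07 and 0.10 and Ccna1 at -1.08 and -1.03.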

How the data were processed

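Total RNA of oviduct was measured on 9 Affymetrix arrays, 1 pool of 5 females each. Per the submitters' processing notes, the authors made the deposited log2 values with RMA in Affymetrix Expression Console; versions, genome build and log base: not given in the sources used here. Deposited values lie in the range of log2 RMA values. Of 28214 probe sets, 21640 had 1 symbol in the platform's annotation, 1321 several and 5253 none; 21553 of the 21640 matched RefSeq. A gene with several was represented by its brightest probe set on average. Gene positions and promoter windows came from RefSeq (GRCm38.p6).

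All groups entered 1 linear model (limma 3.58.1, R 4.3.3, two-sided moderated test with 6 residual and 3.60 prior degrees of freedom; median residual SD 0.0957). A call needed an adjusted p under 0.05, by the Benjamini-Hochberg method across the whole array. The code was also run on simulated data with independent normal noise, which checks the code and not the calls reported here. The gene, the 15 lists, the tests and the rule for naming genes were chosen with earlier results of these data known. The text names Ccna1, all measured cyclins, called members and up to 4 uncalled members of each list with the largest differences, the 12 nearest profiles and 3 neighbours on either side. Cdk2 lies outside that rule. No 2 arrays were identical; arrays correlated at 0.9923 to 0.9963 within groups and at 0.9903 to 0.9952 between them. The comparisons with immature oviduct share its 3 arrays. The number of arrays limits the precision.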

Additional observations from a re-analysis of the deposited data

How the results depend on the processing

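Ccna1 kept its direction and size in every setting tried: -1.158 to -1.008 in diestrus and -1.106 to -0.956 in estrus relative to immature oviduct when single arrays were left out, and diestrus minus estrus between -0.0847 and -0.0137 with no call. The replicate number as a block left that difference at -0.05 (adjusted p = 0.975). The labels do not pair same-numbered arrays. Correlations of their deviations from group means ran from -0.294 to 0.169. For diestrus minus estrus they were 0.12, 0.169 and 0.0645. With 3 arrays per group these values cannot exclude a pairing. Counts moved more. Probe sets called in diestrus minus immature, estrus minus immature and diestrus minus estrus numbered 282, 24 and 45. With single arrays left out they ranged from 41 to 533, 1 to 95 and 1 to 105. With array weights they were 1288, 1023 and 3331, with the replicate block 121, 4 and 13, at an adjusted p under 0.01 they were 31, 2 and 1, and without the arrays with high ovarian or muscle markers, which leaves 1 diestrus array, 3, 2 and 0. With only the arrays of the groups compared, 85 were called for diestrus minus immature and 0 for diestrus minus estrus. Loess gave 5 and probe sets with 1 symbol gave 12 for estrus minus immature. For diestrus minus estrus, probe sets with 1 symbol gave 91 and those above the array median on at least 3 arrays gave 129. Cyclins other than Ccna1 called in diestrus minus immature, 3, ranged from 1 to 5 with single arrays left out, and were 6 with array weights, 1 with the block, 1 with only the arrays compared and 0 without the arrays with high markers. For estrus minus immature, 0 became 5 with array weights and 1 with the intensity trend, median centring, the filter or only the arrays compared (0 to 2 with single arrays left out), and for diestrus minus estrus 5 with array weights. Genes of the program of many cilia called in diestrus minus immature, 8, ranged from 4 to 9 with single arrays left out and were 0 without the arrays with high markers. For estrus minus immature, 1 became 9 with array weights and 0 with loess, the block, only the arrays compared or without the arrays with high markers (0 to 1 with single arrays left out). For diestrus minus estrus, 0 became 9 with array weights (0 to 1 with single arrays left out). Array weights gave estrus 3 a weight of 8.16 and estrus 2 one of 0.325. The causes of these shifts were not tested, beyond fewer arrays in the smaller fits.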
